A study of Andrographis paniculata with 12 samples.

Results

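The data compare leaves of the herb Andrographis paniculata, whose bitter constituents are diterpene lactones, after 12 h of methyl jasmonate (MeJA) and at 0 h, the start of the treatment. The comparison takes in 6 of the 12 samples of a time course, 3 labelled biological replicates of leaves induced with MeJA for 12 h and 3 of leaves induced for 0 h; the rest were taken at 24 and 48 h. Poly(A)-enriched RNA was sequenced as stranded paired-end libraries, and the deposited table gives 1 value per assembled gene and time, the authors' mean of the 3 replicates. These values are called levels below. Of 32064 assembled genes, 29399 reached a level of at least 1 at any of the 4 times and were compared. The dose of MeJA, the age of the plants, their light regime and the clock times are not in the labels, and no untreated leaves of 12 h were sampled. If the treatment began at 1 clock time for all plants, the leaves at 0, 24 and 48 h were all taken at that clock time and those at 12 h were not, and effects of MeJA and of time of day on the 12 h leaves cannot be told apart.

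Jasmonates are lipid-derived hormones of the response to wounding and insect feeding. The conjugate of jasmonic acid with isoleucine binds the receptor COI1, which then marks JAZ repressors (members of the TIFY family) for degradation and so frees MYC2 and related transcription factors. The genes these factors switch on include those for jasmonate synthesis itself, for the JAZ repressors, for defence proteins and for specialised metabolites, while photosynthesis and growth genes are known to decline. Leaf transcripts also cycle over the day under a clock in which the morning factors LHY and CCA1 and evening genes such as ELF3, ELF4 and LUX repress each other in turn. The REVEILLE genes are listed here with the morning genes, and GIGANTEA with the evening genes.

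The question is which transcripts of the leaf set the first sampled hours of treatment apart from its start. Genes of jasmonate synthesis, JAZ repressors, protease inhibitors, chlorophyll breakdown, sucrose cleavage, the tricarboxylic acid cycle and isoprenoid precursor pathways were more often higher than lower at 12 h, and those of light harvesting, carbon fixation, chlorophyll synthesis, auxin response, wall loosening and water channels were more often lower than higher. Because there is 1 mean per time, no spread between plants, SD or test stands behind any value. A gene is called higher or lower where log2(level + 1) differed by 1 or more between 12 h and 0 h, which is 2-fold; adding 1 understates the difference of genes at low levels. By that rule 4413 genes, or 15%, were higher at 12 h and 5214, or 17.7%, were lower, together 9627 or 32.7%. The median log2 difference over all 29399 genes was 0.06. Gene lists were drawn from the name of the best Swiss-Prot hit, and each is described by its count of members higher and lower and its median, to be read against these shares. In an assembly 1 gene may appear as several pieces or be merged with its copies, so a count of assembled genes can exceed the count of genes, and a name states similarity.

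The difference did not sit in weakly expressed genes alone. Among the 76 genes with a mean level of 1000 or more over both times, 24 were higher and 27 lower, and among the 14536 genes with a mean from 1 to under 10 the counts were 2125 and 2620. A difference of 16-fold or more was found upward in 371 genes and downward in 325. In all, 316 genes were at 10 or more at 12 h and under 1 at 0 h, and 330 the other way round. The leaf label was checked against its defining transcripts: the Rubisco small chain (TR76467|c8_g3) was at 2739 at 12 h, against 19739 at 0 h. Summed over the 3 root markers the level was 27.3 at 12 h, against 5.46 at 0 h; SHORT-ROOT (TR63946|c0_g2) made up 95.4% of it at 12 h, and the other two summed to 1.26 at 12 h, against 2.10 at 0 h. Over the 8 phloem and xylem markers it was 89.4 at 12 h, against 97.4 at 0 h, and without PHLOEM PROTEIN 2-LIKE A1 (TR26140|c0_g1) it was 74.6 at 12 h, against 58.1 at 0 h. The list of flower markers, 32 genes, summed to 918 at 12 h, against 1958 at 0 h. Besides floral homeotic and pollen-specific names it holds flowering-time genes such as SOC1, SVP and FLOWERING LOCUS T. Its sum is therefore not a measure of flower tissue. The MADS-box gene JOINTLESS (TR16438|c1_g1) made up 15.2% of that sum at 12 h, against 59.2% at 0 h. The rest summed to 778 at 12 h, against 799.7 at 0 h. In RNA of whole leaves, fewer cells of a type and less RNA per cell cannot be told apart.

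**Figure D1:**
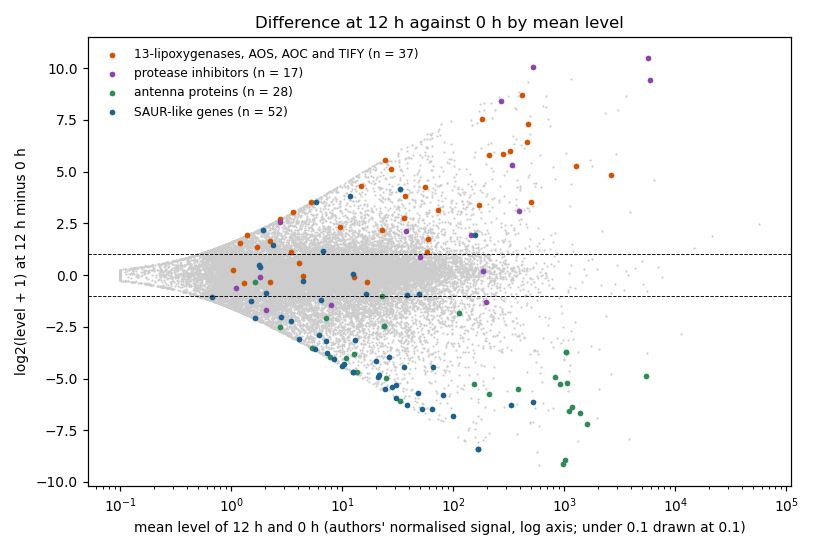
Each grey point is 1 of 29399 assembled genes, placed by the mean level of 12 h and 0 h (horizontal, log axis, the authors' signal) and the difference of log2(level + 1), 12 h minus 0 h (vertical). Dashed lines mark 1 and -1. Genes of jasmonate synthesis and TIFY repressors (orange) lie mostly above the upper line, and antenna proteins (green) and SAUR-like genes (blue) mostly below the lower line. Of 17 protease inhibitors (purple), 9 lie above the upper line and 4 below the lower line.

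Within the jasmonate pathway, the synthesis enzymes, the repressors and the breakdown enzymes were higher together at 12 h, while the receptor and co-repressor genes were not. All 4 genes named allene oxide synthase, the first enzyme committed to jasmonates, were higher, with a median log2 difference of 1.96. The highest difference among them was that of TR60815|c0_g1, at 70.0 at 12 h, against 4.06 at 0 h. Levels of the other three were 37.8 at 12 h, against 7.55 at 0 h (TR46466|c0_g1), 91.6 at 12 h, against 26.9 at 0 h (TR53548|c0_g2) and 79.7 at 12 h, against 36.1 at 0 h (TR53548|c0_g1). With the columns scaled to equal sums, TR53548|c0_g1 had a difference of 0.96 and fell just short of the 2-fold limit. Of 7 allene oxide cyclase genes, 4 were higher and none lower, with allene oxide cyclase 2 (TR76470|c1_g4) at 945 at 12 h, against 4.95 at 0 h; allene oxide cyclase 3 (TR19598|c0_g1) was at 14.7 at 12 h, against 18.6 at 0 h, within the 2-fold limits. Upstream of them stand the 13-lipoxygenases, which oxygenate linolenic acid in the plastid: 5 of 6 were higher, and the gene TR60361|c4_g2 was at 62.8, 2498, 1849 and 4109 at 0, 12, 24 and 48 h. It shares an assembly component with the lipoxygenase TR60361|c4_g4, at 178, 5078, 1165 and 809 at 0, 12, 24 and 48 h, so the highest level of the pair was that of c4_g4 at 12 h and that of c4_g2 at 48 h. A 13-lipoxygenase of type 3 (TR65609|c2_g1) was at 107 at 12 h, against 4.72 at 0 h.

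At its peroxisomal end, where the side chain of the precursor is shortened, the route had a smaller share of members beyond 2-fold than among the lipoxygenases and allene oxide enzymes. In that list 9 of 18 genes were higher and 1 lower (median 1.12). The thiolase KAT2 (TR82408|c1_g1), which releases each pair of carbons, was at 289 at 12 h, against 17.7 at 0 h. Acyl-CoA oxidase 1 (TR83858|c0_g3), the entry enzyme of the cycle, was at 197 at 12 h, against 16.4 at 0 h. A gene named acyl-CoA oxidase 3 (TR74684|c1_g2) was nearly level, at 173 at 12 h, against 141 at 0 h, and over the 9 oxidases 3 were higher and 1 lower. The 2 genes named 12-oxophytodienoate reductase, the step before the peroxisomal cycle, summed to 363 at 12 h, against 131 at 0 h.

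Among the regulators, 17 of 20 TIFY genes were higher and none lower (median 3.54). TIFY 10A, the JAZ1 type, was named for 2 genes, at 911 at 12 h, against 9.70 at 0 h (TR47119|c4_g4) and at 920.1 at 12 h, against 77.2 at 0 h (TR26630|c9_g6). TR26630|c9_g6 alone held 44.8% of the summed TIFY level at 0 h and 17.7% at 12 h, so the family's level at 12 h was spread over more members. In the MYC list 5 of 8 genes were higher. MYC2 was named for TR78965|c1_g1, at 189 at 12 h, against 32.5 at 0 h, and for TR24422|c0_g2, at 37.6 at 12 h, against 0.813 at 0 h, but TR26617|c1_g2, also named MYC2, was at 30.6 at 12 h, against 31.2 at 0 h and MYC4 (TR67484|c1_g1) at 13.2 at 12 h, against 13.4 at 0 h. MYC3 (TR78965|c1_g2), a piece of the same assembly component as TR78965|c1_g1, was at 21.2, 62.2, 7.16 and 0 at 0, 12, 24 and 48 h. The list of receptor, co-repressor and conjugating enzymes had 2 of 25 members higher and 2 lower (median -0.10). Its 14 Topless co-repressor genes had a median of -0.06, and the Ninja-family gene AFP2 (TR68543|c0_g1), of a family that links repressors to Topless, was at 22 at 12 h, against 3.04 at 0 h.

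Enzymes that remove or modify the hormone were also higher. Of 18 genes in this list 11 were higher and none lower, and its summed level was 554 at 12 h, against 57.8 at 0 h. CYP94C1, which in Arabidopsis oxidises jasmonoyl-isoleucine to its carboxy form, had 2 such genes, at 47.1 at 12 h, against 0.0213 at 0 h (TR21334|c0_g3) and at 39.3 at 12 h, against 0.0897 at 0 h (TR21334|c0_g2). IAA-amino acid hydrolases of the ILR1-like group, which split hormone conjugates and some of which act on jasmonoyl-isoleucine in Arabidopsis, were higher in 6 of 12 cases. ILR1-like 4 (TR15175|c0_g2) was at 210.4 at 12 h, against 10.2 at 0 h. All 3 jasmonate O-methyltransferase genes, whose product makes MeJA, came from 1 assembly component and may also be pieces or close copies. They summed to 102 at 12 h, against 0.255 at 0 h. A gene of the same enzyme class outside the lists, benzoate carboxyl methyltransferase (TR13462|c1_g1), was at 2.38, 1372, 1703 and 1319.5 at 0, 12, 24 and 48 h.

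**Figure D2:**
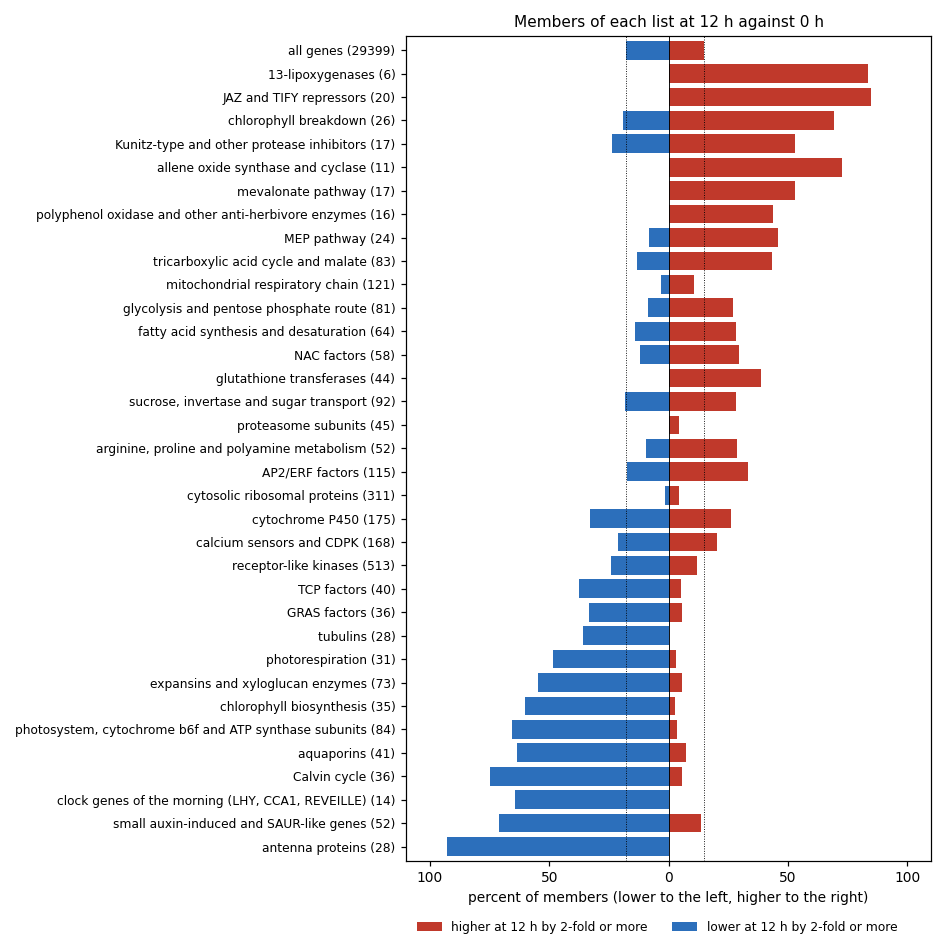
Percent of members of each gene list that were higher (red, to the right) or lower (blue, to the left) by 2-fold or more at 12 h against 0 h, ordered by the median difference, with the number of members in brackets. Dotted lines mark the shares over all genes, 15% higher and 17.7% lower; the JAZ and TIFY, 13-lipoxygenase and allene oxide lists had no lower member, and the antenna, morning clock and tubulin lists no higher one.

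The other hormones divided into those with more members higher and those with more members lower. Ethylene and abscisic acid genes were more often higher, and auxin, cytokinin, brassinosteroid and gibberellin-repressor genes more often lower. For ethylene, 19 of 50 genes were higher and 11 lower (median 0.59). The ethylene-forming enzyme ACC oxidase 4 (TR82369|c1_g1) was at 103 at 12 h, against 0.155 at 0 h. Summed, the ethylene list's level, 7959 at 12 h, against 1688 at 0 h, was set by the gene named ethylene receptor 1 (TR79615|c17_g1), which held 58.5% of it at 12 h, against 1.13% at 0 h. The factor EIN3, which carries the ethylene signal in the nucleus, was lower in 2 genes named for it, at 4.40 at 12 h, against 22.3 at 0 h (TR57918|c4_g1) and at 2.64 at 12 h, against 13 at 0 h (TR23788|c1_g1).

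Abscisic acid genes had 15 of 49 members higher and 11 lower. Enzymes at both ends of its metabolism were among the higher ones. Zeaxanthin epoxidase (TR22039|c0_g1), which makes a precursor, was at 114 at 12 h, against 14.9 at 0 h. Abscisic acid 8'-hydroxylase 3 (TR60337|c4_g9), which breaks the hormone down, was at 0.0613, 63.3, 87.3 and 161 at 0, 12, 24 and 48 h, while 8'-hydroxylase 4 (TR58054|c0_g2) was at 0.0993 at 12 h, against 10.6 at 0 h. Receptors stood level or lower: PYR1 (TR58556|c6_g3) was at 134 at 12 h, against 116 at 0 h, and 2 named PYL4 were at 4.25 at 12 h, against 18.7 at 0 h (TR67856|c0_g2) and 6.59 at 12 h, against 19.9 at 0 h (TR45159|c0_g1). The bZIP factor ABI5-like 5 (TR81262|c4_g6), of the class that binds abscisic acid response elements, was at 129.6 at 12 h, against 7.47 at 0 h.

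Cytokinin and brassinosteroid genes differed in both directions within each pathway. LOG enzymes free active cytokinin from its nucleotide, and of 14 such genes 4 were higher and 5 lower. The gene TR86957|c0_g1 was at 6.29, 456, 101 and 41.4 at 0, 12, 24 and 48 h and made up 50.5% of the cytokinin list's sum at 12 h, against 1.07% at 0 h. Another LOG gene (TR25758|c0_g2) was at 6.78 at 12 h, against 63 at 0 h. Response regulators, some of which cytokinin induces, were lower in 7 of 13 cases, with ARR5 (TR81310|c1_g2) at 6.74 at 12 h, against 58 at 0 h and ARR15 (TR59973|c0_g1) at 3.37 at 12 h, against 42.2 at 0 h. In brassinosteroid synthesis, the early enzyme CYP90B1 was higher in 2 genes, at 76.1 at 12 h, against 13.5 at 0 h (TR24023|c1_g1) and 66.1 at 12 h, against 11.6 at 0 h (TR77733|c2_g1). The late enzyme CYP85A1 was lower in 3 of 4 genes, with TR19597|c1_g2 at 43, 0.689, 0 and 0 at 0, 12, 24 and 48 h. CYP734A1 (TR58555|c0_g4), which inactivates the hormone, was also lower, at 7.95 at 12 h, against 35.3 at 0 h.

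Auxin response was the hormone list with the lowest median, -1.23, with 20 of 157 genes higher and 86 lower. Its small auxin-induced (SAUR) genes, which activate proton pumping and cell expansion, were lower in 37 of 52 cases and higher in 7. Auxin-induced protein 15A was at 13.8 at 12 h, against 1033 at 0 h (TR81280|c1_g1) and at 0.801 at 12 h, against 199 at 0 h (TR44275|c1_g1). Auxin-induced protein X10A (TR832|c0_g1) went the other way, at 11.5 at 12 h, against 0.0660 at 0 h, as did ARG7-named TR39128|c0_g1, at 63.2 at 12 h, against 2.61 at 0 h. The summed level of the SAUR genes was 4173, 504, 624 and 366 at 0, 12, 24 and 48 h. DELLA proteins, the repressors that gibberellin removes, were lower in 5 of 8 genes and higher in none (median -1.60). DELLA GAI was at 11.2 at 12 h, against 49.3 at 0 h (TR56299|c1_g1) and at 2.53 at 12 h, against 19.9 at 0 h (TR66592|c0_g1), and RGA2 (TR77383|c0_g1) at 3.52 at 12 h, against 24.3 at 0 h.

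Signalling families held strong differences in both directions and medians near that of all genes. Calcium sensors and kinases had 34 of 168 members higher and 36 lower (median 0.09). The calcium-binding protein PBP1 (TR58612|c1_g1) was at 37.5, 766, 523 and 391 at 0, 12, 24 and 48 h. Among 41 kinases that calcineurin B-like sensors control, 10 were higher and 10 lower; kinase 32 (TR37529|c0_g2) was at 76.4 at 12 h, against 3.41 at 0 h and kinase 18 (TR77752|c0_g1) at 0.146 at 12 h, against 34.6 at 0 h. The MAP kinase cascade had 15 of 69 members higher and 6 lower. A MAP kinase kinase kinase of type 2 (TR81354|c3_g3) was at 85.5 at 12 h, against 0.534 at 0 h. At the other end, 3 genes of a shared assembly component named for MAP kinases 17, 12 and 15 were all lower: TR81190|c2_g2 at 1.19 at 12 h, against 298 at 0 h, TR81190|c2_g1 at 0.484 at 12 h, against 105 at 0 h, and TR81190|c2_g4 listed at 0 at 12 h, against 24.9 at 0 h. They may be pieces of 1 gene and are uncertain as separate members.

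Receptor-like kinases were more often lower, 124 of 513 against 60 higher (median -0.17). The co-receptor BAK1 (TR72022|c5_g1), which pairs with brassinosteroid and immune receptors, was at 141 at 12 h, against 265 at 0 h, within the 2-fold limits. Ubiquitin ligases of the RING and U-box kinds had 47 of 410 members higher and 68 lower. Genes named RHA2A, a RING ligase that in Arabidopsis promotes abscisic acid responses, had the 3 largest positive differences of the list, with TR66000|c1_g1 at 5.49, 687, 271 and 159.8 at 0, 12, 24 and 48 h and TR79924|c0_g1 at 0.604, 291, 76.5 and 36.5 at 0, 12, 24 and 48 h. U-box genes alone were lower in 22 of 81 and higher in 12. A U-box 8 gene (TR65265|c0_g2) was at 29.4, 0.123, 32.9 and 32.5 at 0, 12, 24 and 48 h. Protein phosphatases 2C, which switch off abscisic acid and stress kinases, had 16 of 103 higher and 10 lower, with 2C 8 (TR20900|c0_g2) at 20.4 at 12 h, against 1.36 at 0 h and 2C 57 (TR76463|c0_g1), in Arabidopsis the plastid phosphatase of light-harvesting proteins, at 5.39 at 12 h, against 40.8 at 0 h.

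Among transcription factors, the AP2/ERF and NAC families had more members higher, and the GRAS, TCP, MYB, C2H2 and GATA lists more members lower. NAC factors, many of them linked to senescence and stress, were higher in 17 of 58 and lower in 7 (median 0.50). The gene TR23798|c1_g3, named NAC100, was at 63 at 12 h, against 0.0880 at 0 h, and a gene named NAC72 (TR45774|c0_g1) at 0.187, 63.2, 113 and 68.6 at 0, 12, 24 and 48 h. AP2/ERF factors were higher in 38 of 115 and lower in 20. RAP2-7 (TR32364|c0_g1), a repressor of flowering in Arabidopsis, was at 32.3 at 12 h, against 0.802 at 0 h. SHINE 3 (TR68214|c0_g1), which in Arabidopsis switches on cutin and wax genes, was at 0.676 at 12 h, against 32.4 at 0 h. RAP2-4 stood on both sides, with TR32056|c0_g2 at 26.3 at 12 h, against 1.28 at 0 h and TR74157|c6_g7 at 72.7 at 12 h, against 224 at 0 h.

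WRKY factors, regulators of defence, were split evenly, 15 of 81 higher and 15 lower (median 0.00). WRKY33 (TR81213|c3_g1), which in Arabidopsis is needed against necrotrophic fungi, was at 124 at 12 h, against 2.72 at 0 h, and WRKY18 (TR82306|c0_g1) at 92.6 at 12 h, against 8.12 at 0 h. WRKY70 (TR66746|c4_g1), which in Arabidopsis favours salicylate over jasmonate responses, was lower, at 48.3, 7.44, 37.8 and 6.63 at 0, 12, 24 and 48 h. WRKY50 (TR49017|c0_g1) was at 1.80 at 12 h, against 24.8 at 0 h. MYB factors had 21 of 119 higher and 37 lower. Myb4-named TR49704|c3_g3, of a repressor type that acts on phenylpropanoid genes, was at 201 at 12 h, against 4.14 at 0 h. A repressor named MYB5 was higher in TR79485|c1_g2, at 125 at 12 h, against 1.78 at 0 h, and lower in TR81341|c1_g2, at 2.97 at 12 h, against 88.4 at 0 h. Myb-related protein 306 was named for 2 genes of a shared component that differed in direction, TR38537|c0_g2 at 121 at 12 h, against 1.67 at 0 h and TR38537|c0_g1 at 0.490 at 12 h, against 17.8 at 0 h. With their levels summed the log2 difference was 3.13, so the lower value of TR38537|c0_g1 alone is uncertain.

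The bHLH factors other than MYC had 29 of 132 higher and 35 lower. bHLH13 (TR32452|c5_g7), a JAZ-binding repressor of jasmonate responses in Arabidopsis, was at 94 at 12 h, against 3.97 at 0 h. ICE1 (TR23463|c0_g5), which in Arabidopsis acts in cold response and stomatal development, was at 1.00 at 12 h, against 26.1 at 0 h. Zinc finger ZAT10 (TR32450|c3_g3), a stress-induced repressor, was at 103 at 12 h, against 1.00 at 0 h, and zinc finger protein 8 (TR85680|c1_g1) at 0.744 at 12 h, against 82.1 at 0 h. In the HD-ZIP list 14 of 76 were higher and 22 lower, with HOX4 (TR24485|c2_g1) at 353 at 12 h, against 4.06 at 0 h. HAT5 stood on both sides, with TR18207|c1_g1 at 334 at 12 h, against 72.2 at 0 h and TR73049|c0_g1 at 14.5 at 12 h, against 90.9 at 0 h. Heat stress factor B-2b (TR18312|c0_g2) was at 49.4 at 12 h, against 2.94 at 0 h, and factor A-6b (TR74564|c2_g2) at 0.817 at 12 h, against 58 at 0 h. TCP factors, which control leaf cell division and shape, were lower in 15 of 40 and higher in 2, with TCP24 (TR27184|c0_g1) at 4.40 at 12 h, against 65.3 at 0 h. GATA22 (TR28903|c0_g1), a greening factor in Arabidopsis, was at 5.62 at 12 h, against 32 at 0 h.

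Clock genes of the morning list were more often lower at 12 h, and those of the evening list more often higher. Of 14 morning genes 9 were lower and none higher (median -2.40), and their summed level was 676, 38, 843 and 742 at 0, 12, 24 and 48 h. Most of that sum outside 12 h came from LHY (TR49676|c1_g3), at 383, 0.70, 494 and 475 at 0, 12, 24 and 48 h; the other morning genes summed to 37.3 at 12 h, against 293 at 0 h. REVEILLE 1 was named for 3 genes, which were at 60.9, 0.957, 86.5 and 61.7 at 0, 12, 24 and 48 h (TR58473|c0_g1), at 29.3, 2.63, 36.4 and 31.2 at 0, 12, 24 and 48 h (TR26541|c1_g6) and at 17.7, 1.18, 27.6 and 24.8 at 0, 12, 24 and 48 h (TR39481|c0_g2). In each of them the 12 h level lay below the other three times. REVEILLE 6 had a lower gene, TR73858|c0_g1, at 10.6 at 12 h, against 47.8 at 0 h, and another within the 2-fold limits, TR80969|c0_g3, at 12.8 at 12 h, against 10.3 at 0 h.

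Evening genes were higher in 8 of 16 members and lower in 2 (median 1.06). ELF4 (TR49144|c0_g1), part of the complex that represses morning genes at dusk, was at 0.827, 100.1, 1.94 and 0.720 at 0, 12, 24 and 48 h. The blue-light receptor Adagio 3 (TR72951|c0_g1), named FKF1 in Arabidopsis, was at 0.0647, 28, 0.106 and 0.0600 at 0, 12, 24 and 48 h. ELF3 was named for 2 genes in this range, which were at 27.3 at 12 h, against 3.74 at 0 h (TR26634|c1_g1) and at 13.3 at 12 h, against 0.701 at 0 h (TR50735|c1_g2). LUX, their DNA-binding partner, was at 24.7 at 12 h, against 10.8 at 0 h for TR21635|c3_g1 and at 25.8 at 12 h, against 38.1 at 0 h for TR58556|c7_g2, so its named genes did not share a direction; scaled to equal column sums, TR21635|c3_g1 had a difference of 0.97, inside the 2-fold limit. Of the 10 pseudo-response regulators 3 were higher and 2 lower (median -0.22). Among them PRR1 (TR20843|c0_g1), the TOC1 type that peaks in the evening, was at 0.232, 10.2, 0.387 and 0.559 at 0, 12, 24 and 48 h. PRR5 (TR63929|c5_g2) was at 3.05, 26.2, 6.33 and 16.2 at 0, 12, 24 and 48 h, and PRR73 (TR73914|c0_g1) at 25.6 at 12 h, against 32.2 at 0 h.

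**Figure D3:**
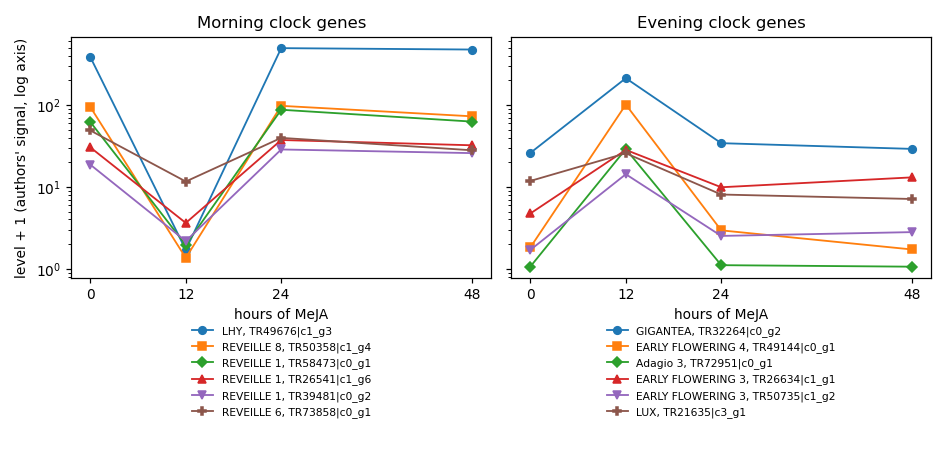
Level + 1 (authors' signal, log axis) of 6 morning and 6 evening clock genes against hours of MeJA, 1 mean per time. At 12 h all 6 morning genes lie below their 0 h level and all 6 evening genes above it, and at 24 and 48 h all 12 lie closer to their 0 h level than at 12 h. These 12 were picked from the named genes. Left out were a further LUX gene, below its 0 h level at 12 h, and a further REVEILLE 6 gene, above it. Over the full lists 9 of 14 morning genes were lower and 0 higher, and 8 of 16 evening genes were higher and 2 lower.

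Light-signalling genes beyond 2-fold were more often lower than higher, while most members of that list lay within the 2-fold limits. CONSTANS and CONSTANS-like genes, which link day length to flowering, were lower in 13 of 26 cases and higher in 5. CONSTANS itself (TR62558|c0_g1) was listed at 0 at 12 h, against 256 at 0 h, and was at 36.4 and 21.3 at 24 and 48 h. CONSTANS-LIKE 2 (TR84404|c0_g1) was at 147, 0.201, 173 and 114 at 0, 12, 24 and 48 h, and CONSTANS-LIKE 9 (TR67829|c0_g1), among the higher members, at 0.915, 22.7, 8.89 and 10.0 at 0, 12, 24 and 48 h. Photoreceptor and light-signalling genes had 5 of 78 higher and 29 lower. The gene named for the ultraviolet-B receptor UVR8 with the lowest difference (TR24452|c0_g1) was at 314, 0.402, 251 and 168 at 0, 12, 24 and 48 h, and the other UVR8 hits had no lower member. Cryptochromes and phototropins, the blue-light receptors, were lower in 9 of 13 genes and higher in none. The early light-induced protein (TR79546|c0_g2), which protects chloroplasts in strong light, was at 138, 1.84, 126 and 136 at 0, 12, 24 and 48 h, and SPA1-related 4 (TR62856|c0_g1), a repressor of light responses, at 48.7, 1.59, 22.8 and 18.3 at 0, 12, 24 and 48 h. Dark- and sugar-starvation-responsive genes had 6 of 36 members higher and 9 lower (median 0.27). Asparagine synthetase (TR14104|c0_g4), which in Arabidopsis is induced by darkness, was lower, at 749, 8.93, 35.6 and 24.4 at 0, 12, 24 and 48 h. It had the lowest difference of that list and held 48.6% of its sum at 0 h, so it did not stand for the list.

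Transcripts of the light reactions were mostly lower. In the antenna list, whose proteins hold chlorophyll and collect light, 26 of 28 genes were lower and none higher (median -4.89). Their summed level was 36215, 1012, 5792 and 6449 at 0, 12, 24 and 48 h, or 0.104% of the column at 12 h, against 4.18% at 0 h. The antenna gene with the highest mean level (TR17188|c7_g3) was at 10556, 363, 1085 and 1209.6 at 0, 12, 24 and 48 h. The list of photosystem, cytochrome b6f and ATP synthase subunits had 3 of 84 genes higher and 55 lower (median -1.48). Within it photosystem I subunits were lower in 15 of 20 genes, and photosystem II and oxygen-evolving proteins in 17 of 25. The 3 higher members fell outside these groups. Among them was PsbP domain-containing protein 6 (TR14246|c0_g1), at 24.0 at 12 h, against 8.72 at 0 h. Photosystem I subunit O (TR85656|c1_g1) was at 32.2 at 12 h, against 3936 at 0 h, and oxygen-evolving enhancer protein 1 (TR63910|c1_g1), which stabilises the water-splitting centre, at 4.11 at 12 h, against 463 at 0 h. The photosystem II 10 kDa polypeptide (TR38528|c4_g2) was at 10441, 760.5, 3224 and 3348 at 0, 12, 24 and 48 h. A ferredoxin outside the lists (TR69204|c0_g1), which takes electrons from photosystem I, was listed at 0 at 12 h, against 223 at 0 h, and was at 83.0 and 82.1 at 24 and 48 h.

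Carbon fixation and photorespiration were lower with them. The Calvin cycle list had 2 of 36 genes higher and 27 lower, and its summed level was 33757, 3619, 15551 and 21374 at 0, 12, 24 and 48 h. The Rubisco small chain made up 75.7% of that sum at 12 h, against 58.5% at 0 h. Plastid aldolase was at 753, 2.72, 342 and 774 at 0, 12, 24 and 48 h for TR83759|c1_g1 and at 354, 1.84, 404 and 963 at 0, 12, 24 and 48 h for TR54001|c1_g2. Another plastid aldolase gene (TR29984|c0_g1) was higher, at 71.5 at 12 h, against 27.3 at 0 h. In photorespiration, which recovers carbon lost when Rubisco takes up oxygen, 15 of 31 genes were lower and 1 higher. Glycine decarboxylase subunits were lower in 6 of 8 cases, with the P protein (TR82842|c0_g1) at 17.1 at 12 h, against 237 at 0 h. Glutamate:glyoxylate aminotransferase 2 (TR79860|c0_g2) was at 48.9 at 12 h, against 622 at 0 h, and hydroxypyruvate reductase (TR42289|c0_g2) at 33.5 at 12 h, against 397 at 0 h. Thioredoxin F (TR26099|c1_g2), which activates Calvin cycle enzymes in the light, was at 513, 41.9, 543 and 537 at 0, 12, 24 and 48 h.

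Chlorophyll synthesis and breakdown stood opposite each other. Of 35 synthesis genes 21 were lower and 1 was higher, with a summed level of 447 at 12 h, against 3506 at 0 h. The cyclase that forms the fifth ring (TR43378|c0_g2) was at 978, 6.15, 285 and 367 at 0, 12, 24 and 48 h, and geranylgeranyl reductase (TR76497|c0_g1), which makes the phytol tail, at 163, 1.75, 19.9 and 29.2 at 0, 12, 24 and 48 h. The higher member was glutamyl-tRNA reductase 1 (TR65249|c0_g1), the entry enzyme, at 13.4 at 12 h, against 1.88 at 0 h. Of 26 breakdown genes 18 were higher and 5 lower (median 2.10). Pheophytinase, which removes the phytol tail, was named 12 times, with 8 genes higher and 3 lower. All 12 share 1 Swiss-Prot entry over 9 assembly components, so they may include pieces, copies or related genes. Of these TR66725|c16_g2 was at 0.692, 129, 115 and 155 at 0, 12, 24 and 48 h. The gene TR82278|c0_g3 was at 91.3, 9.28, 65.3 and 74.6 at 0, 12, 24 and 48 h. STAY-GREEN LIKE (TR51536|c0_g1) was among the lower ones, at 74, 0.297, 1.53 and 0.291 at 0, 12, 24 and 48 h.

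Ribosomal proteins of the plastid type lay mostly within the 2-fold limits. No plastid-type ribosomal protein (30S and 50S) was higher and 22 of 96 were lower (median -0.35). Sigma factor E, which directs the plastid RNA polymerase to photosynthesis genes, was at 70.6, 0.496, 75 and 62.8 at 0, 12, 24 and 48 h for TR63223|c0_g3. The import-complex protein TIC 62 was at 23.7 at 12 h, against 205 at 0 h (TR63916|c4_g1), while TIC 21 (TR47426|c0_g1) was at 64 at 12 h, against 17.4 at 0 h. SRP43 (TR64367|c0_g2), which carries antenna proteins to the thylakoid, was at 10.5 at 12 h, against 69.8 at 0 h. Over all 1573 genes whose name says chloroplastic, 276 were higher and 441 lower (median -0.11); over 582 whose name says mitochondrial the counts were 92 and 47 (median 0.36).

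**Figure D4:**
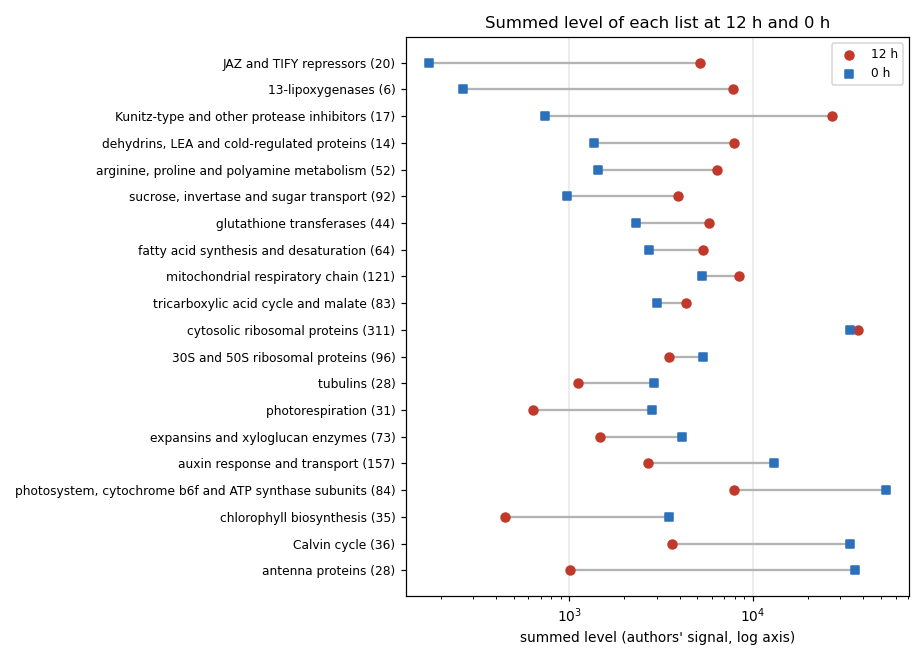
Summed level of each gene list (authors' signal, log axis) at 12 h (red circles) and 0 h (blue squares), with the number of members in brackets. The antenna list stood at 1012 at 12 h, against 36215 at 0 h, and the protease inhibitors at 26982 at 12 h, against 739.8 at 0 h; cytosolic ribosomal proteins were nearly level.

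Starch genes were lower at main steps of synthesis and split at those of breakdown. Granule-bound starch synthase 1 (TR14279|c0_g1), which makes amylose, was at 321, 1.24, 507 and 608 at 0, 12, 24 and 48 h, and the large subunit of ADP-glucose pyrophosphorylase (TR74680|c0_g1), the control step of starch synthesis, at 204, 12, 55.2 and 75.6 at 0, 12, 24 and 48 h. Starch synthases and pyrophosphorylase subunits together were lower in 5 of 12 genes and higher in 1. On the breakdown side, isoamylase 3 (TR59213|c0_g1), a debranching enzyme, was at 1.78, 54.3, 10.1 and 13.3 at 0, 12, 24 and 48 h, and the alpha-glucan phosphorylase of the H type (TR79810|c0_g2), its cytosolic form, at 1.96, 41.9, 1.82 and 1.77 at 0, 12, 24 and 48 h. Beta-amylases, which release maltose, were lower in 7 of 18 genes and higher in none.

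Genes of sugar cleavage and hexose uptake were more often higher than lower. Alkaline and neutral invertases, which split sucrose inside the cell, were higher in 9 of 17 genes and lower in 1, and their summed level was 74.5, 1896, 955 and 509 at 0, 12, 24 and 48 h. Most of it came from a pair of genes of 1 assembly component, TR73577|c5_g1 at 7.72, 986, 668 and 348 at 0, 12, 24 and 48 h and TR73577|c5_g2 at 6.48, 726, 176 and 79 at 0, 12, 24 and 48 h. Monosaccharide carriers were higher in 11 of 25 genes and lower in 5, with sugar transport protein 13 (TR32251|c2_g2), which in Arabidopsis retrieves hexoses during stress, at 14.4, 279, 120.0 and 81.9 at 0, 12, 24 and 48 h. Sucrose synthesis went the other way: sucrose-phosphate synthase was lower in 6 of 8 genes and higher in none, with TR43306|c0_g3 at 1.65 at 12 h, against 11.6 at 0 h. Galactinol synthases, which start the raffinose family of sugars, were lower in 3 of 8 cases. The galactinol synthase 1 genes TR71349|c2_g4 and TR71349|c2_g3 were at 224 at 12 h, against 491 at 0 h and at 9.43 at 12 h, against 212 at 0 h. Trehalose-phosphate phosphatase G (TR20520|c2_g1), which removes the sugar signal trehalose 6-phosphate, was at 73.8 at 12 h, against 2.44 at 0 h.

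In central carbon metabolism more members were higher than lower at 12 h, and in the respiratory chain most lay within the 2-fold limits. Glycolysis and the pentose phosphate route had 22 of 81 genes higher and 7 lower (median 0.53). Among the higher genes were 2 glucose-6-phosphate dehydrogenases, which open the pentose phosphate route and make NADPH, at 24.1 at 12 h, against 0.207 at 0 h for the plastid form (TR18930|c0_g1) and at 30.9 at 12 h, against 2.59 at 0 h for the cytosolic form (TR14223|c0_g3). Plastidial pyruvate kinase 4 (TR81305|c0_g2) was at 241 at 12 h, against 23.7 at 0 h. Pyruvate dehydrogenase, which feeds acetyl-CoA to the tricarboxylic acid cycle and to fatty acids, was higher in 11 of 21 genes and lower in 2. The group of citrate synthase, aconitase and isocitrate dehydrogenase had 7 of 14 higher and none lower, with mitochondrial citrate synthase (TR84379|c0_g2) at 98 at 12 h, against 20.7 at 0 h. Phosphoenolpyruvate carboxylase kinase 1 (TR73017|c0_g2), which activates the carboxylase that refills the cycle, was at 37.7, 321, 285 and 46.5 at 0, 12, 24 and 48 h. In contrast, glyoxysomal malate dehydrogenase (TR83264|c0_g1), an enzyme of photorespiring and fat-burning peroxisomes, was at 27.5 at 12 h, against 244 at 0 h.

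In the mitochondrial respiratory chain the median was 0.54, while 13 of 121 genes, a share below the 15% of all genes, passed 2-fold upward and 4 downward. Complex I had a median of 0.50 over 46 genes, complex III of 0.59 over 18, complex IV of 0.66 over 19, and the ATP synthase of 0.55 over 22. A complex I subunit of the beta subcomplex (TR62806|c1_g5) was at 219.9, 509, 428 and 275 at 0, 12, 24 and 48 h. The summed level of the list was 5296, 8449, 7798 and 5919 at 0, 12, 24 and 48 h. The plastid terminal oxidase (TR80758|c0_g1), which belongs to the same name pattern but acts in the chloroplast, was lower, at 13.8 at 12 h, against 51.3 at 0 h.

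**Figure D5:**
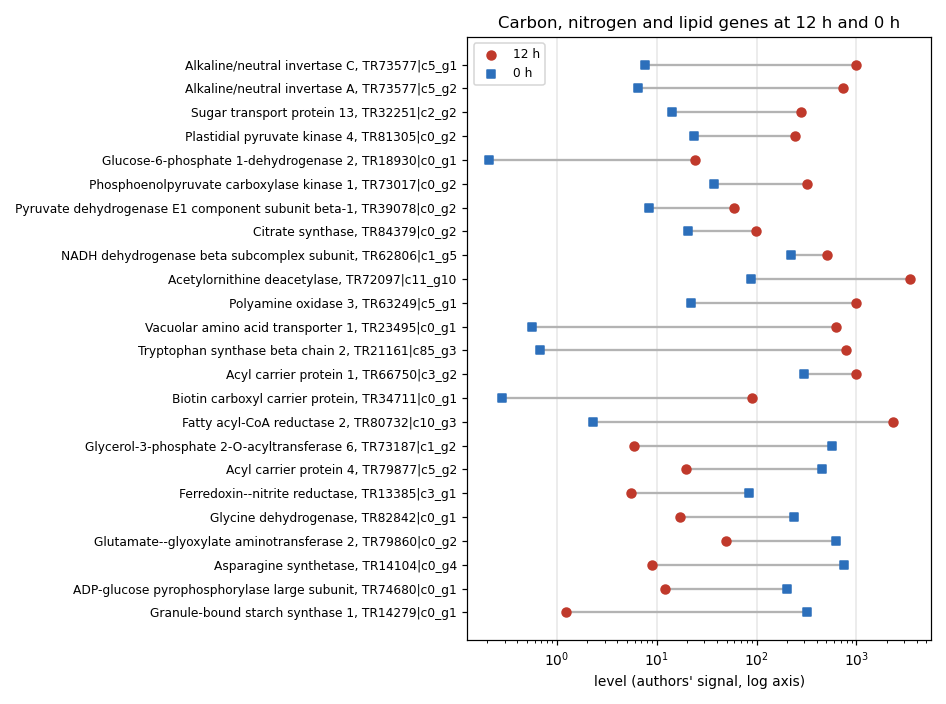
Level of 24 genes of carbon, nitrogen and lipid metabolism (authors' signal, log axis) at 12 h (red circles) and 0 h (blue squares), 1 mean per time. The invertases, the amino acid transporter and the acyl-CoA reductase lie far to the right at 12 h, and starch, photorespiration and asparagine synthesis genes far to the left.

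Nitrogen and sulfur assimilation were lower at several entry steps, and particular amino acid enzymes were much higher. Nitrate, ammonium and peptide uptake and assimilation had 16 of 100 genes higher and 33 lower. Nitrite reductase (TR13385|c3_g1), which makes ammonium in the chloroplast, was at 83.5, 5.56, 52.9 and 117 at 0, 12, 24 and 48 h, and a cytosolic glutamine synthetase (TR70648|c0_g1), the form that recycles ammonium, at 2.48, 42.5, 24.8 and 18.2 at 0, 12, 24 and 48 h. Over the 5 glutamine synthetase genes 2 were higher and 1 lower, and their summed level was 351 at 12 h, against 637 at 0 h. In sulfate reduction, adenylylsulfate reductase 3 (TR24728|c1_g1) was at 631, 85.7, 418 and 237 at 0, 12, 24 and 48 h, and adenylylsulfate kinase (TR64575|c2_g1), which diverts sulfate to sulfated metabolites, at 438, 1066, 2924 and 2018 at 0, 12, 24 and 48 h. Both enzymes use the same substrate, and they stood on opposite sides of their 0 h levels. Serine acetyltransferase, which makes the cysteine precursor, was at 41.1 at 12 h, against 1.23 at 0 h for type 1 (TR48325|c0_g1) and at 22.9 at 12 h, against 220.1 at 0 h for type 5 (TR65967|c0_g1).

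The gene named tryptophan synthase beta chain 2 (TR21161|c85_g3) was at 0.672, 782, 599 and 542 at 0, 12, 24 and 48 h, and the entry enzyme of the shikimate route (TR47069|c1_g1) at 429 at 12 h, against 61.6 at 0 h. Over the shikimate and aromatic list the counts were even, 9 of 49 higher and 8 lower, so these genes did not stand for the list. Acetylornithine deacetylase was higher in all 4 genes of that name; TR72097|c11_g10 was at 88.9, 3442, 3643 and 4864 at 0, 12, 24 and 48 h. Polyamine oxidase 3 (TR63249|c5_g1), which breaks down spermine and spermidine, was at 21.9, 988, 378 and 145 at 0, 12, 24 and 48 h. In polyamine synthesis 2 enzymes were lower: S-adenosylmethionine decarboxylase (TR80374|c1_g1) was at 122 at 12 h, against 423 at 0 h, and agmatine deiminase (TR52428|c0_g3) at 6.04 at 12 h, against 61.4 at 0 h. A vacuolar amino acid transporter (TR23495|c0_g1) was at 0.559, 624, 496 and 343 at 0, 12, 24 and 48 h, whereas another of the same name (TR74109|c0_g2) was at 62 at 12 h, against 234 at 0 h.

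Fatty acid synthesis was higher in part and surface lipids were split. The list of synthesis and desaturation had 18 of 64 genes higher and 9 lower (median 0.51). The biotin carrier of acetyl-CoA carboxylase (TR34711|c0_g1), the committing enzyme, was at 0.283, 89.7, 59 and 50.1 at 0, 12, 24 and 48 h. Acyl carrier protein 1 (TR66750|c3_g2) was at 999.6 at 12 h, against 299.5 at 0 h, but acyl carrier protein 4 (TR79877|c5_g2), the main leaf form in Arabidopsis, at 19.5 at 12 h, against 452 at 0 h. The omega-6 desaturase of the endoplasmic reticulum (TR79917|c3_g1), which makes linoleic acid, was at 673 at 12 h, against 123 at 0 h. Plastid desaturases were among the lower genes, with fatty acid desaturase 4 (TR59514|c0_g1) at 55.8, 0.372, 56.2 and 64.9 at 0, 12, 24 and 48 h and the galactolipid delta-7 desaturase (TR26956|c4_g2) at 49.9, 0.276, 1.40 and 1.09 at 0, 12, 24 and 48 h.

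In the cuticle list 21 of 103 genes were higher and 36 lower. Fatty acyl-CoA reductases, which make wax alcohols, were higher in 5 of 7 genes. Of 3 glycerol-3-phosphate 2-O-acyltransferases, the class that makes cutin and suberin precursors, 1 was higher and 2 were lower: acyltransferase 6 (TR73187|c1_g2) was at 569.6, 5.86, 185 and 122 at 0, 12, 24 and 48 h and acyltransferase 4 (TR25128|c1_g1) at 899, 34.6, 544 and 422 at 0, 12, 24 and 48 h. The cutin enzyme DCR was lower in 2 genes, at 73.7 at 12 h, against 276 at 0 h (TR24018|c1_g1) and at 90.4 at 12 h, against 252 at 0 h (TR24018|c1_g2), and the transporter ABCG11 (TR67530|c1_g3), which in Arabidopsis exports cuticular lipids, was higher, at 0.397, 338, 326 and 194 at 0, 12, 24 and 48 h. All 8 genes of the pEARLI1-like lipid transfer type were lower, with a summed level of 2822, 86.4, 68.7 and 21 at 0, 12, 24 and 48 h; 31 of 130 GDSL lipases were higher and 47 lower, and among the lower ones the gene named APG (TR13865|c0_g5) was at 445, 13.2, 4.42 and 3.31 at 0, 12, 24 and 48 h. All 8 pEARLI1-like genes came from 1 assembly component and may be pieces or close copies.

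Genes of cell expansion were more often lower than higher. Expansins and xyloglucan enzymes, which loosen the wall, were lower in 40 of 73 genes and higher in 4. Expansin A8 (TR86988|c3_g1) was at 1000.2, 79.1, 251 and 14.1 at 0, 12, 24 and 48 h, and expansin A15 (TR24021|c0_g1), an exception, at 149, 619.9, 68.5 and 14.5 at 0, 12, 24 and 48 h. A xyloglucan endotransglucosylase (TR46569|c0_g2) was at 124, 2.32, 1.01 and 0 at 0, 12, 24 and 48 h. Alpha-tubulin (TR46755|c2_g1) was at 1185, 283, 213 and 136 at 0, 12, 24 and 48 h, and 10 of 28 tubulins were lower with none higher. Plasma-membrane aquaporins (PIP), which let water into expanding cells, were lower in 12 of 16 genes and higher in none. The PIP genes summed to 3362, 1201, 3862 and 3727 at 0, 12, 24 and 48 h, so their sum was not low at 24 and 48 h, unlike the PIP2-7 gene that follows. PIP2-7 (TR44285|c0_g1) was at 511, 38.5, 45.6 and 8.08 at 0, 12, 24 and 48 h, while the tonoplast aquaporin TIP1-1 (TR58607|c6_g9) was at 3864, 6118, 5117 and 3788 at 0, 12, 24 and 48 h and held 73.9% of the aquaporin sum at 12 h, against 37.8% at 0 h.

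The cellulose and pectin lists also had more members lower than higher, while the cell cycle list did not. Cellulose synthases and fasciclin-like proteins had 14 of 100 members higher and 25 lower. A cellulose synthase A subunit (TR44309|c6_g2) was at 200.2, 968, 819.6 and 416 at 0, 12, 24 and 48 h, and COBRA-like 1 (TR15719|c1_g1), of a family that orients cellulose, at 11.5, 148, 54.7 and 2.38 at 0, 12, 24 and 48 h. Pectin enzymes were lower in 51 of 147 and higher in 19. Cell cycle genes and histones had 13 of 153 higher and 11 lower (median 0.12); cyclin D4-1 (TR24175|c0_g1) was at 1.19 at 12 h, against 29 at 0 h. A gene named cyclin-dependent kinase D-1 (TR74130|c2_g1) was at 1277, 16.5, 975 and 1084 at 0, 12, 24 and 48 h.

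Genes of terpenoid precursors and terpene synthases were more often higher than lower. In the MEP pathway, which makes isoprenoid units in the plastid, 11 of 24 genes were higher and 2 lower. The synthase of the penultimate step (TR79184|c0_g1) was at 103 at 12 h, against 21.6 at 0 h. In the last step the enzyme was named for 2 genes that differed in direction, TR51094|c2_g1 at 327, 1327, 1472 and 1558 at 0, 12, 24 and 48 h and TR64335|c4_g1 at 213, 37.3, 674 and 848 at 0, 12, 24 and 48 h, and a gene of the entry enzyme, DXS 1 (TR49753|c1_g1), was lower, at 259, 107, 349 and 232 at 0, 12, 24 and 48 h. In the mevalonate pathway, its cytosolic counterpart, diphosphomevalonate decarboxylase (TR52690|c0_g1) was at 9.64, 41.2, 22.7 and 16.4 at 0, 12, 24 and 48 h. The summed level of the mevalonate list was 278, 811, 442 and 341 at 0, 12, 24 and 48 h, and that of the MEP list 1807, 4228, 6143 and 6928 at 0, 12, 24 and 48 h.

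Of 18 terpene synthases 9 were higher and 2 lower. Beta-caryophyllene synthase (TR48613|c1_g1) was at 0.195, 382, 62.9 and 14 at 0, 12, 24 and 48 h, and germacrene A synthase (TR23775|c1_g2) at 0.0910, 129, 204 and 227 at 0, 12, 24 and 48 h. Nerolidol synthase 2 (TR24462|c6_g2), whose product is released by leaves under herbivory in several plants, was at 40.2, 764, 724 and 538 at 0, 12, 24 and 48 h. Ent-copalyl diphosphate synthase (TR66725|c19_g3), the entry to labdane-related diterpenes, was at 359, 834, 3374 and 4348 at 0, 12, 24 and 48 h, with its higher levels at 24 and 48 h. Farnesyl diphosphate synthase 2 (TR40024|c0_g1), which makes the substrate of sesquiterpenes, was at 0.407, 21.1, 14.9 and 3.74 at 0, 12, 24 and 48 h.

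Oxidising and glycosylating enzymes of specialised metabolism held some of the largest differences in both directions. Cytochrome P450 genes were higher in 46 of 175 and lower in 58. CYP72A219 (TR79615|c17_g2) was at 3.52, 1291, 0 and 0 at 0, 12, 24 and 48 h; it lies in the same assembly component as the gene named ethylene receptor 1. CYP71B3 (TR20597|c1_g1) was at 0.136, 149.5, 61.7 and 109 at 0, 12, 24 and 48 h. CYP76C2 (TR47504|c0_g1), of a family that oxidises monoterpenols in Arabidopsis, was at 315, 0.827, 18.5 and 10.2 at 0, 12, 24 and 48 h, and CYP93A2 (TR27604|c0_g1) at 155, 0.232, 8.90 and 7.45 at 0, 12, 24 and 48 h. By family, CYP72 genes were higher in 9 of 23 and lower in 4, and CYP71 genes higher in 10 of 47 and lower in 17. UDP-glycosyltransferases were higher in 30 of 110 genes and lower in 26 (median 0.08). Glycosyltransferase 82A1 (TR15756|c2_g4) was at 0.963, 296, 136 and 61.6 at 0, 12, 24 and 48 h, and zeatin O-glucosyltransferase (TR21681|c2_g1), which stores cytokinin, at 0.220, 77.2, 36.2 and 29 at 0, 12, 24 and 48 h.

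In the phenylpropanoid list 22 of 84 genes were higher and 14 lower, and flavonoid genes 21 of 90 and 20. Cinnamate 4-hydroxylase, the second enzyme of the route, was lower in 2 genes of 1 assembly component, at 309, 49.2, 422 and 465 at 0, 12, 24 and 48 h (TR70016|c0_g4) and at 244, 21.1, 29.4 and 8.10 at 0, 12, 24 and 48 h (TR70016|c0_g5). Among the most different members of the flavonoid list were leucoanthocyanidin dioxygenase (TR20880|c0_g4) at 3.30, 202, 299.8 and 245 at 0, 12, 24 and 48 h and dihydroflavonol reductase (TR70053|c0_g3) at 0.145, 52.3, 23.2 and 20.7 at 0, 12, 24 and 48 h. Secoisolariciresinol dehydrogenase (TR28911|c0_g1), a lignan enzyme outside the lists, was at 0.899, 764, 139.6 and 61.8 at 0, 12, 24 and 48 h. The vacuolar flavonoid transporter type TRANSPARENT TESTA 12 was named for lower and higher genes, with TR85687|c10_g2 at 343 at 12 h, against 803 at 0 h and TR82848|c2_g2 at 131 at 12 h, against 33.9 at 0 h.

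Defence proteins that act on the digestion of insects were more often higher than lower, and pathogenesis-related proteins more often lower. The protease inhibitor list summed to 739.8, 26982, 24019.9 and 47871 at 0, 12, 24 and 48 h, and without its most abundant gene to 15006 at 12 h, against 724 at 0 h, with 9 of 17 genes higher and 4 lower. The Kunitz-type inhibitor named for BuXI (TR83819|c4_g1) was at 16.3, 11976, 14436 and 40279 at 0, 12, 24 and 48 h, and a serine protease inhibitor (TR52219|c0_g1) at 0.572, 536, 504 and 242 at 0, 12, 24 and 48 h. The exceptions include cysteine protease inhibitor 5, lower in TR27652|c1_g2, at 40.8, 6.60, 223 and 204 at 0, 12, 24 and 48 h, and in TR27652|c1_g4, at 281, 115, 331 and 169 at 0, 12, 24 and 48 h. Leucine aminopeptidase (TR50768|c4_g1), a wound-induced enzyme in tomato, was at 1.68, 715, 1145 and 1967 at 0, 12, 24 and 48 h. Threonine dehydratase (TR32416|c5_g3), of a type that in tomato degrades threonine in the insect gut, was at 33.1, 2031, 1434 and 2456 at 0, 12, 24 and 48 h, and polyphenol oxidase F (TR81983|c2_g2), which tans plant proteins, at 1.82, 737, 295 and 357 at 0, 12, 24 and 48 h. In that list 7 of 16 were higher and none lower.

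Pathogenesis-related proteins, chitinases and glucanases were higher in 18 of 98 members and lower in 26. PR-1, a marker of salicylate responses, was lower in 2 genes, TR36497|c0_g1 at 56.9, 0.0373, 0.189 and 0.168 at 0, 12, 24 and 48 h and TR56816|c0_g1 at 48.7, 1.49, 12.7 and 7.53 at 0, 12, 24 and 48 h. The glucanase TR77809|c2_g2 was at 48.7, 584, 676 and 520.4 at 0, 12, 24 and 48 h. Disease resistance proteins of the NBS-LRR type were nearly balanced, 12 of 123 higher and 13 lower (median -0.02). Among the proteases of the vacuole and the secretory route, aleurain-like protease (TR45833|c7_g1) was at 61.4, 1579.8, 1269.6 and 2842 at 0, 12, 24 and 48 h and RD21a (TR32451|c2_g3) at 24.3, 499, 117 and 137 at 0, 12, 24 and 48 h; the list of proteases as a whole had 28 of 132 higher and 30 lower.

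Redox and stress proteins divided by class. Glutathione transferases, which conjugate reactive compounds, were higher in 17 of 44 members and lower in none, and the tau class in 7 of 10. Transferase U20 (TR22239|c0_g1) was at 0.618, 115, 12.6 and 5.10 at 0, 12, 24 and 48 h, and the gene named GST 23 (TR59543|c0_g2) at 0.219, 54.4, 0.226 and 0 at 0, 12, 24 and 48 h. Catalase isozyme 1 (TR79878|c2_g5), which removes the peroxide of photorespiration, was lower, at 407, 52.5, 1345 and 1653 at 0, 12, 24 and 48 h. Thioredoxin H-type 1 (TR59237|c0_g1), a cytosolic form, was at 431 at 12 h, against 16.3 at 0 h, while thioredoxin M1 of the chloroplast (TR81354|c5_g1) was at 63.6 at 12 h, against 285 at 0 h. Late embryogenesis abundant protein Lea5 (TR74169|c1_g7) was at 837, 7060.4, 3939 and 2262 at 0, 12, 24 and 48 h and held 88.9% of its list's sum at 12 h, against 61.4% at 0 h. Heat shock proteins and DnaJ chaperones were nearly balanced, with 15 of 150 higher and 19 lower. A DnaJ gene (TR17449|c0_g1) was at 0.279, 123, 1.35 and 1.40 at 0, 12, 24 and 48 h, and a class I small heat shock protein (TR46528|c0_g2) at 91.8, 5.16, 124 and 43.2 at 0, 12, 24 and 48 h.

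The machinery that makes and removes proteins differed little at 12 h. Of 311 cytosolic ribosomal protein genes 13 were higher and 5 lower (median 0.15), and their summed level was 33717, 37656, 19376 and 16342 at 0, 12, 24 and 48 h. With the columns scaled to equal sums the median of this list was -0.02, against -0.06 over all genes. Nucleolar ribosome biogenesis genes had 4 of 49 higher and none lower, and proteasome subunits 2 of 45 higher and none lower, with medians of 0.38 and 0.39. Splicing factors had 2 of 82 higher and 1 lower. Single genes stood out from these lists: the autophagy protein ATG8c (TR79403|c0_g3) was at 32.7, 132, 137 and 117 at 0, 12, 24 and 48 h, the pentatricopeptide repeat gene TR17132|c1_g1 at 4.09, 406, 225 and 99.3 at 0, 12, 24 and 48 h, and 2 threonine-tRNA ligase genes at 6.73 at 12 h, against 78.7 at 0 h (TR83258|c0_g3) and 7.03 at 12 h, against 47.2 at 0 h (TR83258|c0_g2).

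Genes without a database hit carried a large share of the total level. Of the 5808 compared genes with no hit, 997 were higher and 1148 lower, and together they held 23.1% of the column sum at 12 h, against 13.4% at 0 h. Most of that difference came from TR44405|c11_g2, at 17306, 95796, 77773 and 53574 at 0, 12, 24 and 48 h; without it the class held 13.3% at 12 h, against 11.4% at 0 h. The gene TR34236|c2_g2, with no hit, was at 17, 7234, 22771 and 52772 at 0, 12, 24 and 48 h, and TR65391|c4_g1, also with none, at 9141, 33979, 7618 and 2804 at 0, 12, 24 and 48 h. At the other end TR85643|c7_g1 was at 1182, 1.01, 596 and 331 at 0, 12, 24 and 48 h and TR23955|c4_g1 at 1145, 2.05, 401 and 220.0 at 0, 12, 24 and 48 h. The gene named stem 28 kDa glycoprotein (TR68757|c2_g1), in soybean a vegetative storage protein that jasmonate induces, was at 503, 12305, 3881 and 1667 at 0, 12, 24 and 48 h. CEN-like protein 1 (TR73211|c1_g1), of the family that holds back flowering, was at 0.379, 439.9, 132 and 69.7 at 0, 12, 24 and 48 h, and an epoxide hydrolase (TR35027|c1_g3) at 0.126, 351, 2.11 and 0.986 at 0, 12, 24 and 48 h. Root phototropism protein 2 (TR57010|c0_g2), which in Arabidopsis acts with phototropin, was at 278, 0.672, 42.3 and 17.8 at 0, 12, 24 and 48 h. The 10 most abundant genes by mean level made up 21.1% of the column sum at 12 h, against 9.19% at 0 h.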

How the data were processed

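Leaf RNA at 0, 12, 24 and 48 h of MeJA, 3 samples each, is held in 1 deposited table. Each value is a normalised signal per assembled gene and time that the authors averaged over the 3 replicates before they deposited it. Per the submitters' processing notes the tools included RSEM 1.2.19, Trimmomatic 0.33, FastQC 0.11.3 and CASAVA. Not given in the sources used here are the unit of the signal, the assembler and the reference. The column sums differ, at 973347 for 12 h and 866243 for 0 h, and how many reads stand behind a value is unknown. No transcript sequences or coordinates were used here.

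From these values log2(12 h + 1) - log2(0 h + 1) was computed for the 29399 genes at 1 or more at any time, in Python 3.11.15 with pandas 2.3.3, numpy 2.4.6 and matplotlib 3.10.9. With 1 mean per time no test was possible, and a size of 2-fold took its place; the steps were tested on simulated data. The 105 gene lists are name patterns on the best Swiss-Prot description. Members and lists were chosen with earlier results of these data known, accidental name matches were removed from 28 lists after the names were seen, and 75 subgroups were chosen after the values were seen. A gene may be in several lists.

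Named genes were taken from 598 candidates: the 15 annotated genes with the largest difference each way at a mean level of at least 10, the 10 highest at each time, the 3 most different members each way and the highest member of each list at a level of at least 10, all clock, MYC and allene oxide genes at that level, and the 3 most different genes without a hit each way. Alternatives changed the value added before the logarithm, the minimum level, the scaling of the columns, the counting of assembled genes and the size.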

Additional observations from a re-analysis of the deposited data

How the results depend on the processing

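The counts of genes moved most with the size asked for and with the treatment of low levels. With 5 in place of 1 added before the logarithm, 2166 genes were higher at 12 h and 2682 lower, and 23 in place of 36 lists had a median of 0.5 or more in size. With a minimum level of 10 the counts were 2523 and 2811, and with a size of 4-fold 1549 and 2011; all of these follow from fewer genes reaching the limit or being compared. Under the other alternatives the higher count ran from 3113 to 5948 and the lower count from 3668 to 6698. Scaling to equal column sums put the median of all genes at -0.06, against 0.06 as deposited, and gave 3816 higher and 5806 lower genes. Lists with a median near 0 took the other sign under it, and 41 in place of 36 lists had a median of 0.5 or more in size. Some candidate genes fell inside the 2-fold limit, such as TR16394|c5_g4, at a difference of 0.84, against 1.00 as deposited. No list or candidate gene passed from beyond its limit on one side to beyond it on the other under this scaling. The direction of 1 named gene reversed: Myb-related protein 306 (TR38537|c0_g1) was at a difference of 3.13 when levels were summed over 1 component and entry, because TR38537|c0_g2 was added to it. No paired analysis was possible because the table holds 1 mean per time and no value per replicate, and leaving out each replicate in turn was not run for the same reason. The depth behind the levels is unknown, so low levels carry an error of unknown size.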

Other observations

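Metal and phosphate genes held single members with large differences inside lists that were otherwise mixed. The list of iron, copper and zinc genes had 11 of 74 members higher and 22 lower. Metallothionein type 2 (TR83785|c1_g3), a small metal-binding protein, was at 3173, 290.3, 1073 and 602 at 0, 12, 24 and 48 h, whereas metallothionein type 3 (TR72653|c0_g2) was at 3837, 4924, 4992 and 4900.3 at 0, 12, 24 and 48 h. Ferric reductase 6 (TR55514|c0_g2), which in Arabidopsis serves iron uptake by leaf cells, was at 177, 3.44, 75.2 and 78.2 at 0, 12, 24 and 48 h. The copper chaperone CCH (TR49700|c0_g5) was at 22.5, 260.4, 20.4 and 12.9 at 0, 12, 24 and 48 h. The metal-nicotianamine transporter YSL3 (TR12567|c0_g1) was listed at 0 at 0 h and was at 67.6 at 12 h and at 0.451 and 0.0453 at 24 and 48 h. Purple acid phosphatase 26 (TR74651|c6_g2), which in Arabidopsis recovers phosphate in senescing leaves, was at 7.66, 706, 295 and 391 at 0, 12, 24 and 48 h, and the phosphate transporter 2-1 of the chloroplast (TR80413|c0_g1) at 49.8, 6.45, 49.6 and 44.5 at 0, 12, 24 and 48 h.

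Epidermal and stomatal lists both had more members lower than higher, with single genes far to either side. The trichome and root-hair factor GLABRA 2 was higher in 3 genes of 1 assembly component that the naming rule covers, with TR19615|c0_g4 at 5.34, 133, 113 and 98.1 at 0, 12, 24 and 48 h, TR19615|c0_g1 at 1.08, 30.8, 0 and 0.835 at 0, 12, 24 and 48 h and TR19615|c0_g2 at 16.4 at 12 h and listed at 0 at 0 h. Protodermal factor 1 (TR84878|c0_g1), a protein of the outer cell layer, was at 75.8, 7.39, 4.88 and 0.969 at 0, 12, 24 and 48 h. Over the 25 epidermis and trichome markers 4 were higher and 10 lower, and their summed level was 422 at 12 h, against 381 at 0 h. All 4 higher ones were GLABRA 2 genes, which summed to 202 at 12 h, against 8.91 at 0 h; the other 21 summed to 219.8 at 12 h, against 373 at 0 h. Among stomatal signals, epidermal patterning factor 2 (TR26411|c3_g3), which limits stomata, was at 0.175, 40.5, 61.7 and 63.1 at 0, 12, 24 and 48 h, and the factor EPFL9 (TR26482|c0_g5), named stomagen in Arabidopsis, where it promotes stomata, at 75.1, 1.09, 5.12 and 3.40 at 0, 12, 24 and 48 h. The 25 genes of that list, 5 higher and 9 lower, summed to 108 at 12 h, against 169 at 0 h, and without this EPFL9 gene to 107 at 12 h, against 94.1 at 0 h; the part of cell composition in these values was not tested.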
